A study of Homo sapiens with 6 samples.

Results

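Potassium channel genes were described in RNA-sequencing libraries of the bladder cancer cell line T24, which is an established human line. The members were the protein-coding genes whose symbol starts with KCN, 96 of the 60612 Ensembl identifiers in the deposited count table. They comprised 40 voltage-gated, 15 two-pore (KCNK), 16 inward rectifier (KCNJ) and 8 calcium- or sodium-activated pore genes, and 17 auxiliary subunit genes. All 6 libraries came from T24 cells infected with lentivirus and selected with puromycin. In 3 libraries, labelled negative control (genotype WT), the virus carried a control hairpin (Lenti-dsControl). In the 3 labelled FOXF1-activated, it carried a hairpin made from a small activating RNA against FOXF1, a forkhead transcription factor gene (Lenti-dsFOXF1-367). Whether the 3 libraries of a group were grown as separate cultures is not in the labels, so p-values measure the spread between libraries only, which may be technical.

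Potassium channels are membrane pores that let potassium cross along its gradient, and they set the resting membrane potential of most cells. Voltage-gated channels open when the membrane depolarises, and two-pore channels carry a background leak. Inward rectifiers pass current more easily into the cell than out of it, and calcium-activated channels open when cytosolic calcium rises. Auxiliary subunits change the gating of a channel or its delivery to the membrane. In epithelial and tumour cells these channels are known for roles in volume regulation, proliferation and migration.

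Library totals were 72500854 to 77198669 counts. FOXF1, the targeted gene, ran against the label. It was at 7.51, 7.10 and 7.95 CPM in the controls and at 5.94, 4.78 and 5.10 CPM in those labelled FOXF1-activated (log2 change -0.51 ± 0.14 SE, edgeR adjusted p = 0.0109). CPM here are counts scaled to library size with TMM, a correction that is robust to a few very abundant genes. Directions given below are for the libraries with that label, relative to the controls. Of 5 epithelial markers 3 fell: KRT7 from 539 to 203 CPM, KRT8 from 651 to 508 CPM and EPCAM from 0.942 to 0.383 CPM, while KRT18 (532 and 481 CPM) and KRT19 (2.13 and 1.72 CPM) did not pass. Their sum was 1657 to 1783 CPM in the controls and 1160 to 1240 CPM in the other group. Of 3 mesenchymal markers VIM fell from 2803 to 1857 CPM and CDH2 from 70.9 to 50.5 CPM, and ZEB1 did not pass (sum 2572 to 3254 and 1789 to 2158 CPM). Of 7 urothelial markers PPARG rose from 54.2 to 62.5 CPM and made up most of their sum (53.4 to 57.6 and 60.9 to 67.4 CPM). GATA3 and UPK1B were under 1 CPM in every library without a call, KRT20 and UPK2 were too scarce to be tested, and UPK1A and UPK3A had 0 counts, as had the 3 basal markers KRT5, KRT14 and TP63. Of 4 neuronal markers MAP2 and RBFOX3 rose, SNAP25 fell and SYP did not pass (sum 10.2 to 11.7 and 12.4 to 14.2 CPM). The leukocyte marker PTPRC rose from 11.6 to 15.0 CPM, and the endothelial marker PECAM1 was at 5.58 and 5.62 CPM without a call (sum 15.2 to 18.8 and 17.1 to 23.9 CPM). Of 4 muscle and heart markers MYH11 was at 1.86 and 2.31 CPM without a call, DES had 14 counts in all, and MYOD1 and TNNT2 had 0 (sum 1.40 to 2.19 and 2.03 to 2.86 CPM). Whether these shifts had a part in the results below was not tested.

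Of the 96 members, 48 had enough counts to be tested. In those labelled FOXF1-activated 9 of these were higher and 15 were lower at an edgeR adjusted p under 0.05, and 24 did not pass. Of all 20334 genes tested, 60.7% were called, 29.2% higher and 31.5% lower, so a call was common in this comparison and the members' 50.0% lay below the share over all genes. The median log2 change was -0.16 over the tested members and 0.00 over all tested genes. The members' median had no stable sign: it was 0.021 with no filter, 0.015 without negative control replicate 1, 0.008 without FOXF1-activated replicate 3 and -0.703 with only genes at 1 CPM in 3 libraries. Calls with at least a 2-fold change were made for 20 members, 9 higher and 11 lower, and for 28.8% of all tested genes. Members were often scarce: 27 of the 48 had a mean under 1 CPM, and 7 of those (25.9%) were called, against 28.8% of all tested genes at that level. Of the 21 at 1 CPM or more, 4 were higher and 13 were lower (81.0%). Of all 14423 tested genes at that level, 4944 were higher and 5703 were lower (73.8%). The groups did not overlap for 32 of the 48 members, where 68.8% of all tested genes did not overlap.

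**Figure D1:**
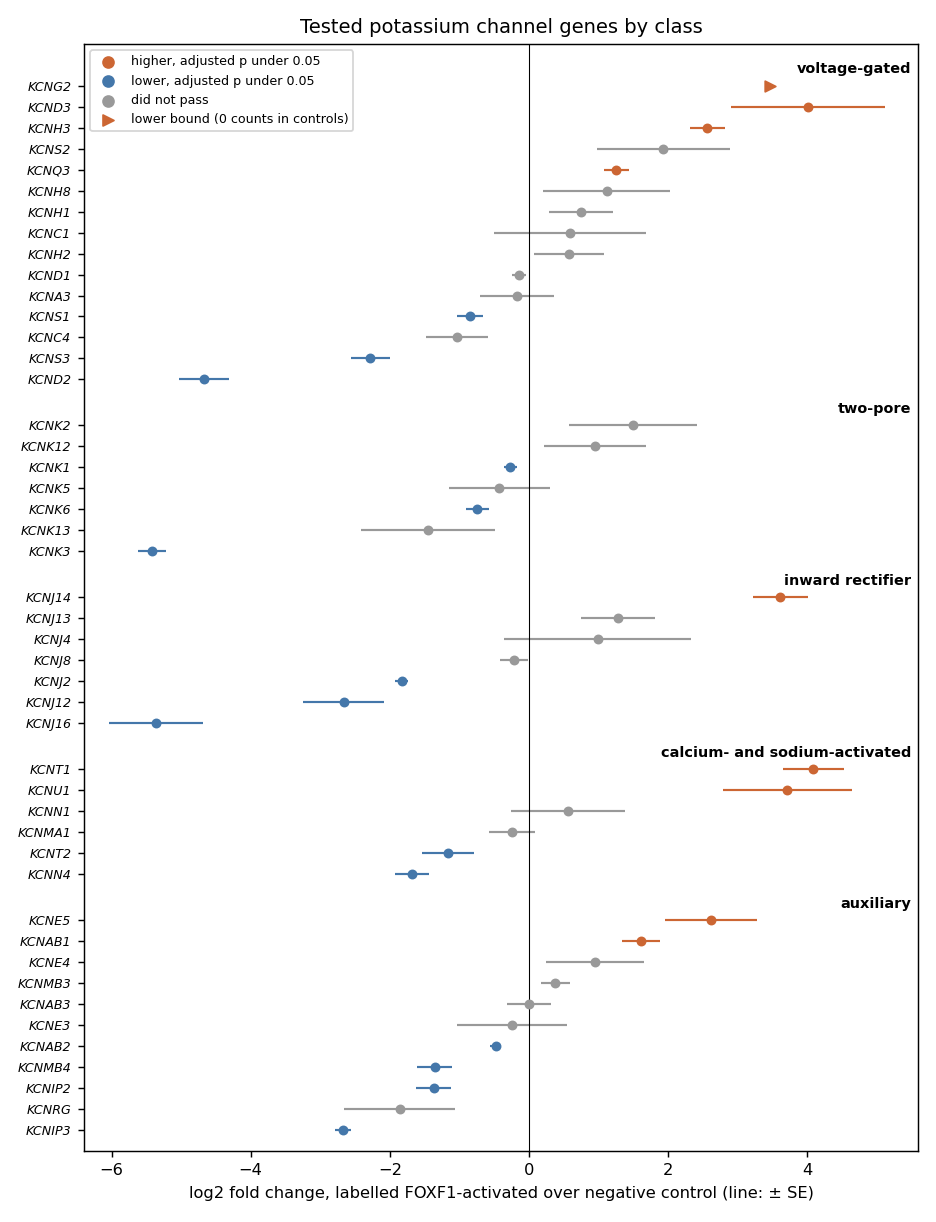
Log2 change (horizontal axis) of 46 of the 48 tested potassium channel genes, grouped by class, with lines for ± SE and colours for the call. Points run from KCNK3 at -5.42 on the left to KCNT1 at 4.09 on the right, every class except the two-pore genes holds calls in both directions, and KCNG2 is drawn as a lower bound of 3.46.

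KCNK3, a two-pore gene, and KCNJ16, an inward rectifier gene described further on, fell furthest, and their log2 changes were within each other's standard error. KCNK3 encodes TASK-1, an acid-sensitive background leak channel (ENSG00000171303, GRCh38 chromosome 2, 26692690 to 26733420, plus strand). It was at 47.3, 49.4 and 46.9 CPM in control replicates 1, 2 and 3, and at 1.42, 1.23 and 0.721 CPM in those labelled FOXF1-activated. Every control library was far above every library of the other group. Group means were 47.8 ± 1.3 and 1.12 ± 0.36 CPM (n = 3 each, SD), a log2 change of -5.42 ± 0.20 (SE, edgeR adjusted p = 4.05e-08). The raw counts behind these levels were 11069 over the controls and 241 over the other group. As the steepest fall among the abundant members, KCNK3 is shown with its RefSeq promoter window (GRCh38.p14, chr2:26692472-26692771, plus strand), which runs from 250 bases before to 50 bases after the annotated start. Capitals mark each CG dinucleotide, 39 in all.
KCNK3: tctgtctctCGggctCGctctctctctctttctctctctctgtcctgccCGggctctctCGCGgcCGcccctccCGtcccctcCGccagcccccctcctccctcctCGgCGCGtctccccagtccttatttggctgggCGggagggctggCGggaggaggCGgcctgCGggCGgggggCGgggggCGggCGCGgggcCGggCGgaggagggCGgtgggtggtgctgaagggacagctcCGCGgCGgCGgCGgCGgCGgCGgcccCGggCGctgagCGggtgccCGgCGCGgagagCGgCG

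KCNK1 and KCNK6 were the other two-pore genes of appreciable level. KCNK1 encodes TWIK-1, a weakly inward-rectifying leak channel. It was at 17.3, 17.2 and 15.6 CPM in the controls and at 13.9, 13.5 and 14.1 CPM in those labelled FOXF1-activated, groups that did not overlap but lay close together. Its log2 change was -0.27 ± 0.09 (SE, edgeR adjusted p = 0.0293), and this call was lost under 8 of 16 alternatives, with adjusted p values of 0.0521 to 0.144 there. KCNK6, which encodes TWIK-2, was at 8.50, 6.81 and 7.98 CPM in the controls and 4.77, 5.24 and 3.90 CPM in the other group. All its control libraries were higher, and it fell by 0.74 ± 0.16 on the log2 scale (SE, edgeR adjusted p = 0.00299). Of 7 tested two-pore genes 3 were called lower and 0 higher, where 31.5% of all tested genes were lower and 29.2% higher. KCNK2, which encodes the mechanosensitive channel TREK-1, did not pass, with a log2 change of 1.50 (edgeR adjusted p = 0.189), from 0.169 to 0.480 CPM. Its log2 change ran from 0.91 without negative control replicate 2 to 2.23 without negative control replicate 3. KCNK5, KCNK12 and KCNK13 were also tested without a call, at mean levels of 0.0943 to 0.260 CPM.

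Among inward rectifiers, KCNJ2 was the most abundant. It encodes Kir2.1, the strong inward rectifier that holds the resting potential near the potassium equilibrium in many cells (ENSG00000123700, GRCh38 chromosome 17, 70168673 to 70180048, plus strand). Its level was 57.8, 57.9 and 56.7 CPM in the controls and 18.5, 14.6 and 15.3 CPM in those labelled FOXF1-activated. The control values were nearly equal and the groups were well apart. Group means were 57.5 ± 0.7 and 16.1 ± 2.1 CPM (n = 3 each, SD), a log2 change of -1.83 ± 0.10 (SE, edgeR adjusted p = 2.55e-07).

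KCNJ16 lies 33.1 kb from KCNJ2 on chromosome 17 (70053429 to 70135608) and encodes Kir5.1, a subunit that joins other Kir subunits in epithelia. It was at 1.48, 1.07 and 2.25 CPM in the controls and at 0.0568, 0.0564 and 0 CPM in the other group, where only 8 counts were found in all. It fell by 5.36 ± 0.67 on the log2 scale (SE, edgeR adjusted p = 8.32e-05). The pair KCNJ16 and KCNJ2 was the only one, among 17 pairs of members next to each other within 500 kb, in which both genes were tested. KCNJ2-AS1, a noncoding gene on the strand opposite to KCNJ2 that shares 185 exon bases with it, fell from 7.03 ± 1.18 to 0.467 ± 0.013 CPM (log2 change -3.91, edgeR adjusted p = 2.91e-07). The strand setting of the counting is unknown here, so reads of KCNJ2 and KCNJ2-AS1 in the shared bases may be assigned to either.

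KCNJ14 went the other way. This gene encodes Kir2.4, a relative of Kir2.1, and lies on chromosome 19 (48455509 to 48466980). It was at 0.602, 0.182 and 0.307 CPM in the controls and at 4.94, 3.54 and 4.99 CPM in those labelled FOXF1-activated. It rose by 3.62 ± 0.40 on the log2 scale (SE, edgeR adjusted p = 3.11e-05), and its groups did not overlap. KCNJ14 shares 350 exon bases with GRWD1 on the same strand, a gene with 16445 counts in all, so part of its count is uncertain. KCNJ12, which encodes Kir2.2, fell from 0.925 ± 0.258 to 0.145 ± 0.112 CPM (log2 change -2.66, edgeR adjusted p = 0.00299). KCNJ12 is nearly identical to KCNJ18, which had at most 4 counts in a library, and reads of the pair may have been split. Without FOXF1-activated replicate 1 the KCNJ12 log2 change was -3.46. KCNJ8, the Kir6.1 pore of ATP-sensitive channels, was at 3.35 and 2.89 CPM on average (log2 change -0.21, edgeR adjusted p = 0.398). KCNJ13 and KCNJ4 did not pass the test either (1.29 and 0.99, edgeR adjusted p = 0.0613 and 0.551). The log2 change of KCNJ4 ran from 0.05 without FOXF1-activated replicate 3 to 2.30 without negative control replicate 1. The promoter windows of KCNJ2 (chr17:70169282-70169581) and KCNJ14 (chr19:48455324-48455623), both on the plus strand of GRCh38.p14, are shown because these Kir2 genes moved in opposite directions. They held 39 and 7 CG dinucleotides, again in capitals.
KCNJ2: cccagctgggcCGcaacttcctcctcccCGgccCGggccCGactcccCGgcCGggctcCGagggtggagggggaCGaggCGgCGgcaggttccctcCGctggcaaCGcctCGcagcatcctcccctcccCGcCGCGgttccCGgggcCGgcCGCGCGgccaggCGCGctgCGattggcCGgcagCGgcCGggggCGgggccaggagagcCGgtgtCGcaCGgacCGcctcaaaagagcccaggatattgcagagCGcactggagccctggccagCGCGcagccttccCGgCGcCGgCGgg
KCNJ14: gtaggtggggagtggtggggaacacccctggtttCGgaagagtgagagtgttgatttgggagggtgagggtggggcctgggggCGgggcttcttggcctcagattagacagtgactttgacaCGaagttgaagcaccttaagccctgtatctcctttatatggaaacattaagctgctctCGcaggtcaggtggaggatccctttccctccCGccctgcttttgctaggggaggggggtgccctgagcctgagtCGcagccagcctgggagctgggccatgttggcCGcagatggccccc

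**Figure D2:**
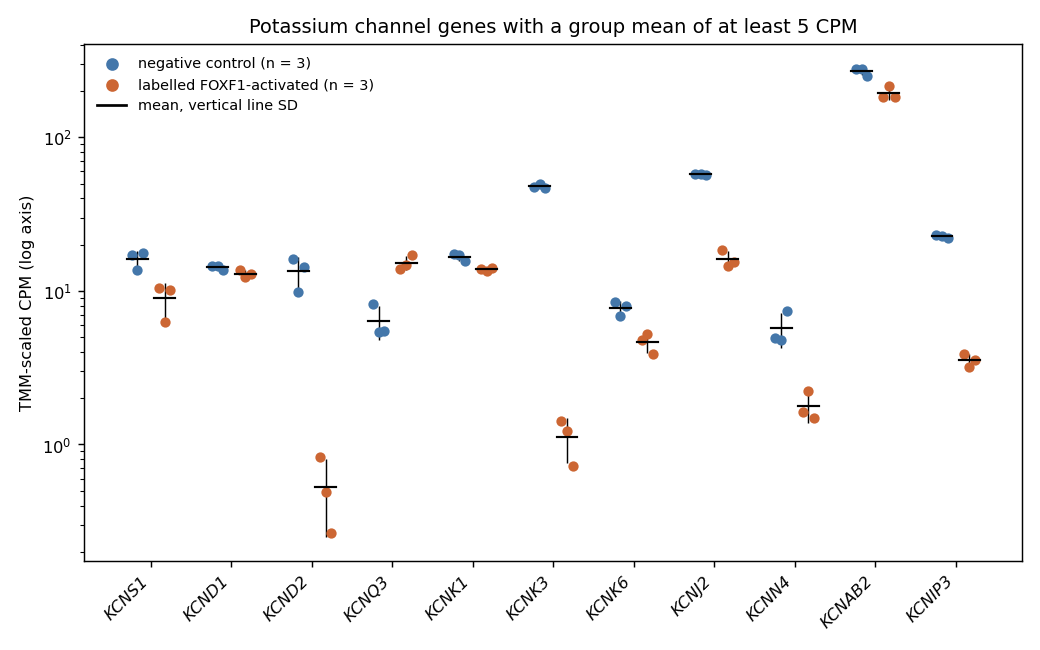
TMM-scaled CPM (vertical log axis) in each library for the 11 tested potassium channel genes with a group mean of at least 5 CPM, with horizontal bars for means and vertical lines for SD (n = 3). KCNK3, KCND2 and KCNIP3 show the widest gaps between the groups, KCNQ3 is the gene that is higher in those labelled FOXF1-activated, and KCND1 and KCNK1 differ little.

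Voltage-gated genes were the largest class, and their calls went both ways, 4 higher and 3 lower of 17 tested. This was 41.2% called, against 60.7% of all tested genes. However, 11 of the 17 had a mean under 1 CPM. At that level 28.8% of all tested genes were called, against 73.8% at 1 CPM or more. The 3 Kv4 genes, which encode pores of fast-inactivating A-type currents, differed from each other. KCND2 encodes Kv4.2 (ENSG00000184408, GRCh38 chromosome 7, 120273668 to 120750331, plus strand). It was at 16.1, 9.86 and 14.3 CPM in the controls and at 0.824, 0.494 and 0.267 CPM in those labelled FOXF1-activated. The lowest control was more than 10 times the highest library of the other group. Group means were 13.4 ± 3.2 and 0.528 ± 0.280 CPM (n = 3 each, SD), with a log2 change of -4.67 ± 0.36 (SE, edgeR adjusted p = 2.88e-06). KCND1, which encodes Kv4.1, was at 14.6, 14.6 and 13.8 CPM in the controls and 13.7, 12.2 and 12.9 CPM in the other group. Its groups did not overlap, by a narrow margin, and its log2 change of -0.14 ± 0.10 (SE) missed the threshold (edgeR adjusted p = 0.228). KCND3, for Kv4.3, was close to the limit of detection, with 4 counts over the controls and 65 over those labelled FOXF1-activated. It was called higher (fitted log2 change 4.02, edgeR adjusted p = 0.0107), but not without FOXF1-activated replicate 1 (3.69, adjusted p = 0.0520). Without negative control replicate 1 no control count was left and the fitted value was 7.48. The KCND2 window (GRCh38.p14, chr7:120272925-120273224, plus strand) is shown as that of the steepest fall in the class, with its 21 CG dinucleotides in capitals.
KCND2: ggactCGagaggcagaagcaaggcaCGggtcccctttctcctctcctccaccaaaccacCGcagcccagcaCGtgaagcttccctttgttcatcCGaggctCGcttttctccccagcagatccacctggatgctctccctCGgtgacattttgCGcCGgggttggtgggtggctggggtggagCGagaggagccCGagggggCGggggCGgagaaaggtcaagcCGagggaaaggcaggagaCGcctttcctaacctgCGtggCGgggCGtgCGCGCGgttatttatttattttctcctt

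KCNQ3 was the abundant voltage-gated gene that rose. It encodes Kv7.3, a pore of the M-current that damps excitability in neurons. It was at 8.26, 5.39 and 5.52 CPM in the controls and at 14.0, 14.7 and 17.1 CPM in those labelled FOXF1-activated, with no overlap. Group means were 6.39 ± 1.62 and 15.3 ± 1.7 CPM (n = 3 each, SD), a log2 change of 1.26 ± 0.18 (SE, edgeR adjusted p = 1.88e-04).

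KCNH3, an ether-à-go-go type channel gene, rose from 0.754 ± 0.152 to 4.47 ± 0.90 CPM, a log2 change of 2.57 ± 0.25 (SE, edgeR adjusted p = 1.51e-05). It was at 0.902, 0.599 and 0.762 CPM in the controls and 5.07, 3.44 and 4.91 CPM in the other group. The ether-à-go-go genes KCNH1 and KCNH2, often studied in tumours, stayed under 1.1 CPM in every library. Neither passed the test, although KCNH1 was called higher without negative control replicate 1, and KCNH2 had a log2 change of 0.58 (edgeR adjusted p = 0.356). KCNH8 was at 0.242 and 0.528 CPM and missed the threshold too (1.12, edgeR adjusted p = 0.319).

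Electrically silent subunits, which form channels only together with Kv2 pores, made up a further group. KCNS1, for Kv9.1, was at 17.2, 13.7 and 17.5 CPM in the controls and 10.4, 6.31 and 10.2 CPM in those labelled FOXF1-activated. It fell by 0.85 ± 0.19 on the log2 scale (SE, edgeR adjusted p = 0.00357). KCNS3, for Kv9.3, fell further, from 4.93 ± 1.32 to 1.01 ± 0.23 CPM (log2 change -2.28, edgeR adjusted p = 6.14e-05). KCNG2, for Kv6.2, had 0 counts in all 3 controls and 36, 31 and 25 counts in the other group. At a floor of 3 counts per library it was at least 11.0-fold higher (log2 at least 3.46; edgeR adjusted p = 5.29e-04). That bound takes each count as a separate fragment, and with counts divided by 4 KCNG2 was not tested. KCNS2 was at 0.0814 and 0.316 CPM, without a call (1.93, edgeR adjusted p = 0.108), with log2 changes of 1.35 without negative control replicate 3 and 2.78 without negative control replicate 2. KCNB2, a Kv2 pore gene, had 0 counts in all libraries.

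Calcium- and sodium-activated genes split within a pair of relatives. KCNT1 and KCNT2 encode the sodium-activated channels Slack and Slick. KCNT1 was at 0.13, 0.052 and 0.12 CPM in the controls and 1.65, 1.26 and 2.24 CPM in those labelled FOXF1-activated. It rose by 4.09 ± 0.44 on the log2 scale (SE, edgeR adjusted p = 2.60e-05). KCNT2 was at 2.13, 2.22 and 2.31 CPM in the controls and 0.795, 0.536 and 1.63 CPM in the other group, a fall of 1.17 ± 0.38 on the log2 scale (SE, edgeR adjusted p = 0.0225). That call was lost when negative control replicate 2 or 3, FOXF1-activated replicate 1 or FOXF1-activated replicate 2 was left out (adjusted p values 0.0550 to 0.0743).

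KCNN4 encodes the intermediate-conductance calcium-activated channel KCa3.1, which is known for roles in proliferation and migration. It was at 4.96, 4.77 and 7.42 CPM in the controls and 1.62, 2.23 and 1.49 CPM in those labelled FOXF1-activated. All its controls were higher than the other group, and it fell by 1.68 ± 0.24 on the log2 scale (SE, edgeR adjusted p = 2.15e-04). KCNMA1, the large-conductance BK channel pore, was at 0.941 and 0.795 CPM with overlapping groups (log2 change -0.24, edgeR adjusted p = 0.547). KCNU1, a pH-sensitive channel known from sperm, had 8 counts over the controls and 101 over the other group (fitted log2 change 3.71, edgeR adjusted p = 0.00637). KCNN1 did not pass (0.56, edgeR adjusted p = 0.577).

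Auxiliary subunit genes were called lower in 4 and higher in 2 of 11 tested (54.55% called, against 60.7% of all tested genes). KCNAB2, a cytoplasmic beta subunit of Kv1 channels with an aldo-keto reductase fold, had the highest level of any member. It was at 278, 279 and 252 CPM in the controls and 182, 215 and 183 CPM in those labelled FOXF1-activated. Its groups did not overlap, and it fell by 0.48 ± 0.08 on the log2 scale (SE, edgeR adjusted p = 3.96e-04). Kv1 pore genes were scarce beside it: KCNA3 was the only tested one, at 0.351 and 0.313 CPM (log2 change -0.17, edgeR adjusted p = 0.803). KCNAB1, the relative of KCNAB2, rose from 0.738 ± 0.156 to 2.25 ± 0.43 CPM (log2 change 1.61, edgeR adjusted p = 6.45e-04). KCNAB3 was at 1.03 and 1.04 CPM (0.01, edgeR adjusted p = 0.990).

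KCNIP3 and KCNIP2 encode KChIPs, calcium-binding subunits of Kv4 channels, and KCNIP3 is also known as the transcriptional repressor DREAM. KCNIP3 was at 23.1, 22.8 and 22.1 CPM in the controls and 3.91, 3.18 and 3.55 CPM in the other group. The controls were nearly equal and far above the other group, and the log2 change was -2.68 ± 0.11 (SE, edgeR adjusted p = 8.89e-08). KCNIP2 fell from 3.16 ± 0.35 to 1.22 ± 0.34 CPM (log2 change -1.37, edgeR adjusted p = 0.00111), and it shares 413 exon bases with KCNIP2-AS1 on the opposite strand, which held 198 counts. KCND2, KCNIP2 and KCNIP3 were each called lower, as were 31.5% of all tested genes. KCND1 was not called, and KCND3 was called higher from few counts. The KChIP genes KCNIP1 and KCNIP4 were too scarce to be tested. DPP6, another Kv4 partner, had 0 counts in all libraries, and DPP10 had 15 counts in all.

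KCNMB4, a BK channel beta subunit gene, fell from 2.64 ± 0.21 to 1.03 ± 0.25 CPM (log2 change -1.35, edgeR adjusted p = 0.00110). KCNMB3 was at 2.14 and 2.78 CPM without a call (0.38, edgeR adjusted p = 0.151). It shares 3403 exon bases with PIK3CA on the opposite strand, which held 20423 counts. KCNE5, a small single-span subunit gene, had 21 counts over the controls and 122 over the other group (log2 change 2.62, edgeR adjusted p = 0.00645). Its call was lost without FOXF1-activated replicate 1 (2.01, adjusted p = 0.0559), and it shares 78 exon bases with ACSL4 on the same strand, a gene with 100278 counts. KCNRG, which encodes a regulator of Kv1 assembly and shares 1086 exon bases with TRIM13, was at 0.259 and 0.0705 CPM without a call (-1.86, edgeR adjusted p = 0.0690).

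**Figure D3:**
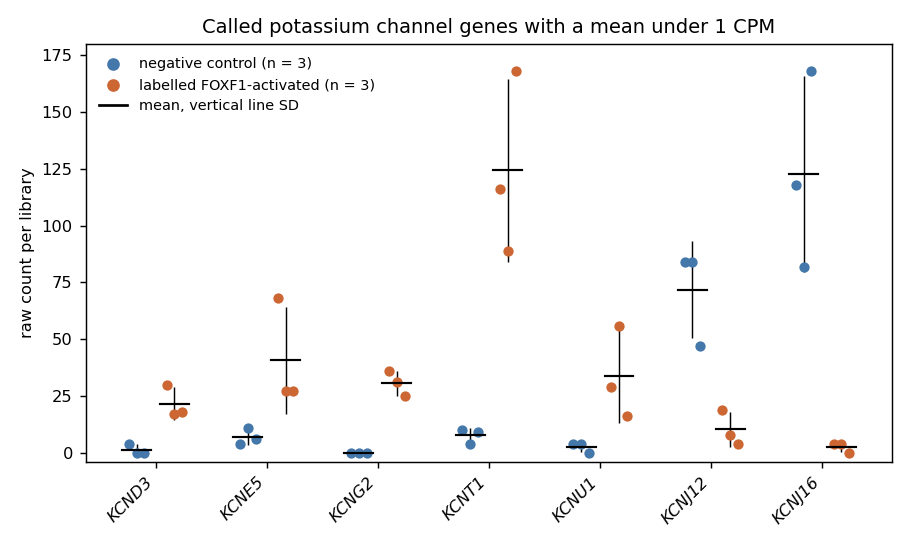
Raw count per library (vertical axis) of the 7 called potassium channel genes with a mean under 1 CPM, with horizontal bars for means and vertical lines for SD (n = 3). KCND3, KCNE5, KCNG2, KCNT1 and KCNU1 sit near 0 in the controls, and KCNJ12 and KCNJ16 sit near 0 in those labelled FOXF1-activated.

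To compare genes with each other, levels were divided by exon length, which gives CPM per kb. On that scale the 79 pore-forming genes together were at 39.6 ± 1.4 CPM per kb in the controls and 19.4 ± 1.7 in those labelled FOXF1-activated (SD, n = 3 each), without overlap. Two-pore genes summed to 13.8 ± 0.3 and 5.12 ± 0.23 CPM per kb, and inward rectifiers to 12.4 ± 0.3 and 5.46 ± 0.66. Voltage-gated genes summed to 11.3 ± 1.2 and 7.81 ± 0.997 CPM per kb, and calcium- and sodium-activated genes to 2.09 ± 0.47 and 1.03 ± 0.07. All 4 sums were lower in those labelled FOXF1-activated, with no library of one group inside the range of the other, but they rested largely on few genes. As a check chosen after the values were seen, each sum was taken again without the gene of the highest control level in its class. Without KCNJ2 the inward rectifiers were at 2.08 ± 0.19 and 2.56 ± 0.41 CPM per kb, and without KCNN4 the calcium- and sodium-activated genes were at 0.409 ± 0.033 and 0.503 ± 0.050, with overlapping groups and means in the other direction. Without KCNK3 the two-pore genes went from 6.15 ± 0.28 to 4.94 ± 0.18 CPM per kb, and without KCNS1 the voltage-gated genes from 7.73 ± 0.89 to 5.83 ± 0.49, still without overlap. That voltage-gated sum still held KCND2, which alone went from 2.42 to 0.0951 CPM per kb. This fall was larger than the difference of -1.90 that remained without KCNS1, so that remainder depended on KCND2. The full voltage-gated difference of -3.48 was larger than the fall of KCNS1 or of KCND2 alone. In bulk RNA, fewer cells with a transcript and less transcript per cell cannot be told apart.

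**Figure D4:**
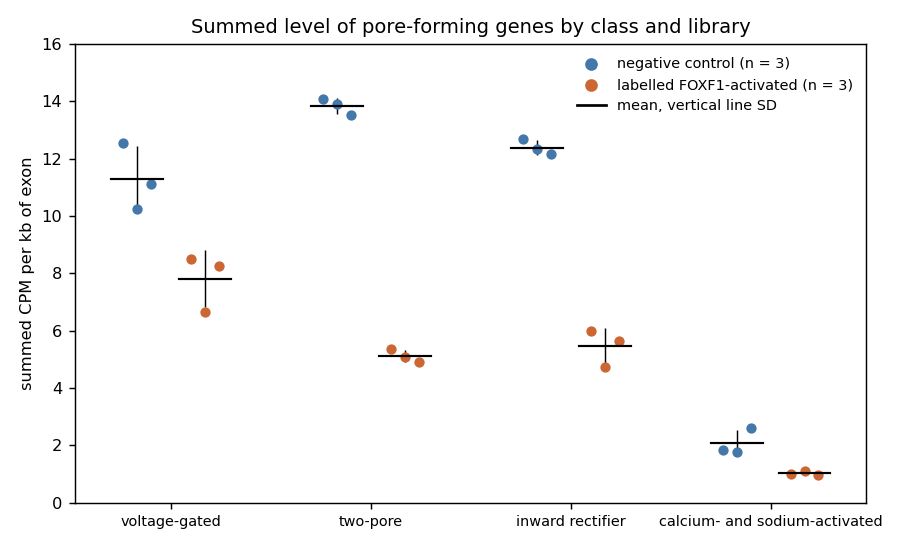
Summed CPM per kb of exon (vertical axis) of the pore-forming genes of each class in each library, with horizontal bars for means and vertical lines for SD (n = 3). Two-pore genes drop from 13.8 to 5.12 and inward rectifiers from 12.4 to 5.46, and voltage-gated genes become the class with the highest sum, at 7.81.

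The order of the pore genes changed as well. In the controls KCNJ2 was first at 10.3 CPM per kb, followed by KCNK3 at 7.69, KCNK1 at 4.60 and KCNS1 at 3.56, each separated from the next by all libraries. KCND1 at 2.46, KCND2 at 2.42, KCNN4 at 1.68 and KCNS3 at 1.57 came next, and the libraries of neighbours in that part of the order overlapped. In those labelled FOXF1-activated KCNK1 was first at 3.82 CPM per kb, then KCNJ2 at 2.90, KCND1 at 2.23 and KCNS1 at 1.98, the last pair overlapping. KCNK3 took 19.4 ± 1.2% of the summed pore level per kb in the controls and 0.934 ± 0.303% in the other group, where it ranked 14. KCNK1 took 11.6 ± 0.7% and 19.7 ± 1.5%, although its own level fell slightly. KCNQ3 went from 1.27 ± 0.28% to 6.26 ± 0.84%, KCNH3 from 0.437 ± 0.073% to 5.28 ± 0.66%, and KCNJ14 from 0.209 ± 0.116% to 5.30 ± 0.59% (SD, n = 3 each).

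The 48 members that were not tested included 14 with 0 counts in all libraries, among them the voltage-gated KCNA1, KCNA5, KCNB2, KCNC2, KCNG4, KCNH4, KCNH5 and KCNH6, the two-pore KCNK4, KCNK16, KCNK17 and KCNK18, and the BK subunit gene KCNMB1. KCNK4 shares 1628 exon bases on the same strand with KCNK4-TEX40, which held 60 counts, so reads of KCNK4 may have been assigned elsewhere. A count of 0 in a library allows a level of up to 0.0376 to 0.0426 CPM, 3 counts of its total, for counting error only. The other 34 had 2 to 64 counts over the 6 libraries together. They included the pore genes of the ATP-sensitive channel of beta cells (KCNJ11) and of the slow cardiac delayed rectifier (KCNQ1). KCNJ5, for Kir3.4, had 11, 7 and 12 counts in the controls and KCNMB2, a BK beta subunit gene, 7, 12 and 8, and both had 0 counts in every library labelled FOXF1-activated. Both were named after their values were seen. Of member counts from 1 to 20, 56.8% were multiples of 4, against 30.1% of all counts in that range, so low counts may overstate the number of fragments seen.

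Promoter windows were available for 72 members, 18 of them called. The median window held 7 CG dinucleotides for genes called higher (6 genes, 11 windows), 19 for genes called lower (12 genes, 19 windows), 22.5 for tested genes without a call (18 genes, 30 windows), 11.5 for members not tested (36 genes, 50 windows) and 14 over all 35116 RefSeq windows. Genes without a call thus had a higher median than those called in either direction. KCNK3 and KCNJ2 had more CG dinucleotides than 91.3% of all windows, KCND2 more than 60.5% and KCNJ14 more than 36.8%. Each of 7 motifs was searched on both strands. The forkhead core GTAAACA was found in 0 of the 18 called members' windows and in 3.42% of all windows. The AP-1 element TGANTCA was found in those of KCNAB1 and KCNJ16 and in 7.71% of all windows. TATAAA was found in those of KCNAB1, KCNJ14, KCNK1 and KCNT2 and in 11.5% of all windows. The E-box CACGTG was found in those of KCNAB1, KCNAB2, KCND2 and KCNN4 and in 7.26% of all windows. The E-box CACCTG was found in those of 6 called members and in 20.6% of all windows. The cAMP response element TGACGTCA (1.85% of all windows) and a 10-base NF-kappaB element (0.145%) were found in 0 of the 18. A gene can have several windows, so these counts of genes are not directly comparable with shares of windows. Counted by window over all members, CACGTG was in 8 of 110, CACCTG in 26, TATAAA in 9, TGANTCA in 9 and GTAAACA in 2. These matches describe letters in a 300-base window and not bound sites.

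Other genes of potassium handling were taken from a list of 51, of which 32 were tested, 13 higher and 9 lower (median log2 change 0.12). Thus 68.75% were called, against 60.7% of all tested genes and 73.8% of those at 1 CPM or more. The list as a whole was therefore called about as often as other genes. By sublist 40.0% to 77.8% of the tested genes were called. Of 9 tested partners and regulators of potassium channels 5 rose and 2 fell. ABCC9, the sulfonylurea receptor SUR2 that pairs with Kir6 pores, was at 12.4, 12.9 and 11.3 CPM in the controls and 106, 119 and 114 CPM in those labelled FOXF1-activated. It rose by 3.21 ± 0.08 on the log2 scale (SE, edgeR adjusted p = 9.77e-09), whereas the Kir6.1 gene KCNJ8 was not called and KCNJ11 was too scarce to be tested. REST, a repressor of neuronal genes, rose by 1.03, and SGK1 (2.89) and NEDD4L (1.59), a kinase and a ubiquitin ligase that act on Kv7 and other channels, rose too. Of 7 tested sodium-potassium ATPase genes 4 rose and 1 fell, with the beta subunit genes ATP1B1 and ATP1B3 at log2 changes of 0.46 and 0.63. Of 11 cation-chloride cotransporters and their kinases 4 rose and 4 fell, among them the kinase gene WNK4 (1.18) and the cotransporter genes SLC12A4 (0.69) and SLC12A7 (-0.64). Of 5 HCN and intracellular potassium channel genes 2 fell, the pacemaker channel gene HCN3 (-1.98) and the lysosomal channel gene TMEM175 (-0.86).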

How the data were processed

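RNA was measured in 6 T24 libraries, 3 per label, grouped by their titles. The deposited table gives raw whole-number counts per gene, not normalised by the authors as far as the values tell. The submitters' processing notes name cutadapt 1.9, TopHat2 2.0.4 and the build GRCh38. For the counting tool, strand setting and annotation nothing is given in the sources used here, and overlapping, antisense and near-identical genes may share reads.

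Symbols came from a table of Ensembl identifiers (60401 matched). Gene type, coordinates and exon length came from GENCODE 29 on GRCh38. Exon length is the union of a gene's annotated exons, and long rare exons lower its CPM per kb. Of 123 identifiers with a KCN symbol, 27 were left out as noncoding or for a hyphen in the symbol. Among them was KCNJ5-AS1, which GENCODE 29 lists as coding and RefSeq as noncoding.

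Genes passing filterByExpr (minimum count 10, minimum total 15) were compared in edgeR 4.0.16 (R 4.3.3) by its quasi-likelihood test after TMM scaling, over all 20334 genes with Benjamini-Hochberg adjustment at 0.05. The standard error is the log2 change divided by the square root of F. The test was checked on simulated data with known changes in a small share of the genes. There the share of false calls was above the threshold of the adjusted p. Calls just under 0.05 may therefore be less sure than their adjusted p states. In these data 60.7% of tested genes were called, and the share of false calls with so many changes was not tested. Members and lists were chosen with earlier results of these data known. Values in every library are given for tested members at 5 CPM or more in a group. Of the others at most 4 per class and direction, by smallest p, were named with a fold change, beside some named by level only. Some genes that this rule names are not reported here. The promoter genes, the motifs and the neighbour distance were chosen after their values were seen. Promoter sequences are from RefSeq (GRCh38.p14).

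Replicates differed by more than sampling noise (chi-square per degree of freedom 18.4 to 30.1). Floors cover counting error only. Alternatives were other scalings, filters and tests (DESeq2 1.42.0, limma-voom in limma 3.58.1), the replicate number as a block, a prior count of 2, counts divided by 4 and leaving out each library.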

Additional observations from a re-analysis of the deposited data

How the results depend on the processing

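The 9 higher and 15 lower potassium channel genes became 5 and 14 when only genes at 1 CPM in 3 libraries were tested, and 5 and 15 with counts divided by 4. Both settings test fewer members (23 and 27), and KCND3, KCNE5, KCNG2 and KCNU1 were then not tested. Under the other scalings, tests and filters 9 to 10 were higher and 14 to 16 lower. With a library left out 7 to 10 were higher and 14 to 15 lower. The summed difference between the groups turned from -6.93 to 0.48 CPM per kb for inward rectifiers without KCNJ2 and from -1.06 to 0.093 for calcium- and sodium-activated genes without KCNN4. Over the members the median log2 change ran from -0.703 to 0.021. Over all genes the median log2 change was 0.00 with TMM and -0.08 to 0.10 with the other scalings. Same-numbered libraries of the groups did not deviate together (correlations -0.0206 to -0.000998), and no library correlated best with its own number. With the replicate number as a block 9 were higher and 14 lower, and KCNK1 lost its call (-0.27, adjusted p = 0.0523).

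KCNK1 also lost it under DESeq2's size factors (-0.24), upper-quartile scaling (-0.17) and without each library except negative control replicate 3 (-0.29 to -0.25). KCNT2 also lost its call with no filter (-1.19, adjusted p = 0.0547). Genes without a call that turned sign when a library was left out were KCNA3 (-0.45 to 0.12), KCNE3 (-1.06 to 0.19), KCNK5 (-0.73 to 0.046) and KCNN1 (-0.22 to 1.07). Calls were gained by KCNC4 (-1.34) without negative control replicate 3, KCNH1 without negative control replicate 1, KCNJ13 (1.38) under upper-quartile scaling, KCNRG and KCNS2 with limma-voom, KCNMB2 with no filter, and KCNJ5 with no filter and without each library except negative control replicates 1 and 3. Other genes without a call also had wide ranges when a library was left out: KCNC4 (-1.34 to -0.69), KCNE4 (0.52 to 1.54), KCNJ8 (-0.38 to -0.083), KCNJ13 (0.72 to 1.51), KCNK12 (0.58 to 1.65), KCNK13 (-2.18 to -0.87), KCNMA1 (-0.36 to -0.060) and KCNMB3 (0.25 to 0.49). KCNK2 was at 2.67 with limma-voom. The order of KCNK3 and KCNJ16 turned with limma-voom and the DESeq2 Wald test, and without negative control replicate 2, FOXF1-activated replicate 1 or FOXF1-activated replicate 2. The causes were not tested. The fitted size of KCNG2 ran from 4.08 to 8.15, which is why its bound is given. Levels under about 0.04 CPM cannot be told from 0 at this depth.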
